A study of Mus musculus with 4 samples.

Results

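Purine nucleotide synthesis was followed through the genes of 10 enzymes, Ppat, Gart, Pfas, Paics, Adsl, Atic, Adss, Impdh1, Impdh2 and Gmps, which were chosen by symbol and were all found among the 25630 rows of a TPM table (a level per gene length, scaled to the same total in every library). The cells were BEKO, a mouse line labelled as thymic lymphoma with the genotype given as WT, sampled at high density (2 libraries) and at low density (2 libraries). How many cells each density meant, in which medium and for how long, is not stated in the labels. Nor do they state whether the 2 libraries of a density were grown as separate cultures, and the p-values below reflect the spread among libraries alone, which may be technical. All 10 T lineage markers examined had a mean of at least 1 TPM, with a summed level of 6261 to 6744 TPM at high density and 6106 to 6508 TPM at low density. Single markers differed within that sum: Trac had 84.8 and 116 TPM at high density and 14.4 and 13.4 TPM at low density, Cd2 had 310 and 278 TPM at high density and 99.8 and 91.4 TPM at low density, and Cd5 had 2.95 and 2.43 TPM at high density and 0.190 and 0.489 TPM at low density.

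Purine rings are built stepwise on a ribose phosphate that is supplied as PRPP, from glutamine, glycine, aspartate, carbon dioxide and formyl groups carried by folate. The path ends at inosine monophosphate (IMP), which is the branch point to AMP and to GMP. Dividing lymphocytes rely on this route for nucleic acid precursors, and blockers of IMP dehydrogenase are used as immunosuppressants. Cells can also recover bases and nucleosides by salvage.

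Low density library 1 stood apart in part of its content. At high density 13605 and 13758 rows were above 0, with 15553 in low density library 1 and 13892 in low density library 2. Of 5 fibroblast markers, with Dcn at 0 in all libraries, the sum was at most 0.536 TPM at high density, 46.7 TPM in low density library 1 and 0.263 TPM in low density library 2. Of 5 B lineage, 5 myeloid, 5 epithelial, 4 endothelial and 4 erythroid markers, the markers Cd79b, Ms4a1, Cd14, Lyz2, Epcam, Krt18, Cdh5, Hba-a1 and Hbb-b1 were at 0 in all libraries. The myeloid sum was 12.1 to 16.1 TPM at high density and 6.62 to 8.50 TPM at low density, nearly all of it Itgam. The endothelial sum was 37.8 to 48.0 TPM at high density and 52.7 to 63.2 TPM at low density, nearly all of it Pecam1. The B lineage, epithelial and erythroid sums were at most 1.30 TPM at high density and at most 4.38 TPM at low density. The part of these markers in the results was not tested.

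The 6 genes of the path to IMP had lower TPM in both high density libraries than in either low density library. Of all tested rows, 20% were lower without overlap in this way and 34.7% were higher without overlap. The summed level of the 6 genes was 62.0% of that at low density. Their division from the branches was drawn after the values had been seen. The summed level of the 4 genes of the branches to AMP and GMP overlapped between the densities. Gart and Adsl fell past the threshold (limma adjusted p under 0.05), while 0 of the 10 genes rose past it. The share of all tested rows that fell past the threshold was 2.11%, and 4.57% rose past it. TPM is relative to all RNA in the table, and in bulk samples fewer cells of a type and less RNA per cell cannot be told apart.

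The first committed step, the transfer of an amide from glutamine to PRPP, is catalysed by the product of Ppat. Ppat had 43.0 and 79.5 TPM in the high density libraries, against 101 and 99.5 TPM in the low density libraries. The groups did not overlap, but the high density libraries lay far apart. The log2 fold change (on log2(TPM + 1), high minus low density) was −0.76 ± 0.30 (SE), with a limma adjusted p of 0.147. It was −0.33 (adjusted p = 0.201) without high density library 1 and −1.20 (adjusted p = 0.00152) without high density library 2, so that the result for Ppat rested on which of these was kept.

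Gart encodes a multifunctional enzyme that adds glycine, adds a formyl group and closes the first ring. Its level was 72.3 and 90.8 TPM at high density, against 200 and 197 TPM at low density. All 4 values were ordered by group, with a gap wider than the distance between libraries of the same density. Gart fell to 41.1% of its low density mean, with a log2 fold change of −1.28 ± 0.24 (SE) and a limma adjusted p of 0.00928. Over all rows tested, 1.68% had a log2 fold change at or below that of Gart. The call was lost without low density library 1 (adjusted p = 0.118) and without low density library 2 (adjusted p = 0.204), where the log2 fold change was −1.27 and −1.29.

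Pfas, whose product adds a second glutamine nitrogen, had 30.3 and 43.4 TPM at high density and 65.7 and 57.8 TPM at low density. Paics, which encodes a bifunctional carboxylase and ligase, was the most abundant of the 10 at either density, at 262 and 247 TPM at high density and 322 and 321 TPM at low density. Neither passed the test, although their groups did not overlap. For Pfas the log2 fold change was −0.75 ± 0.27 (SE; limma adjusted p = 0.12), and that of Paics was −0.34 ± 0.22 (SE; adjusted p = 0.386). For Paics the 95% interval ran from −0.82 to 0.14. Pfas was called after centring (adjusted p = 0.0494) and when high density library 2 was left out (adjusted p = 0.00554), and its log2 fold change was −0.50 (adjusted p = 0.0702) with high density library 1 left out.

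Adsl encodes adenylosuccinate lyase, which acts once on the path to IMP and again in the branch to AMP. It had 48.4 and 60.5 TPM at high density and 102 and 105 TPM at low density. The low density libraries were nearly equal and both high density libraries lay well under them. Adsl fell to 52.6% of its low density mean, with a log2 fold change of −0.92 ± 0.24 (SE) and a limma adjusted p of 0.0453. That call was lost without low density library 1 (adjusted p = 0.443), without low density library 2 (adjusted p = 0.656) and without the mean-variance trend (adjusted p = 0.0836).

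Atic encodes the bifunctional enzyme that adds the last formyl group and closes the second ring to give IMP. Its level was 134 and 178 TPM at high density, against 269 and 240 TPM at low density. The groups were apart, and the log2 fold change of −0.71 ± 0.24 (SE) came with a limma adjusted p of 0.0985. The log2 fold change of Atic was −0.51 with high density library 1 left out and −0.92 with high density library 2 left out.

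**Figure D1:**
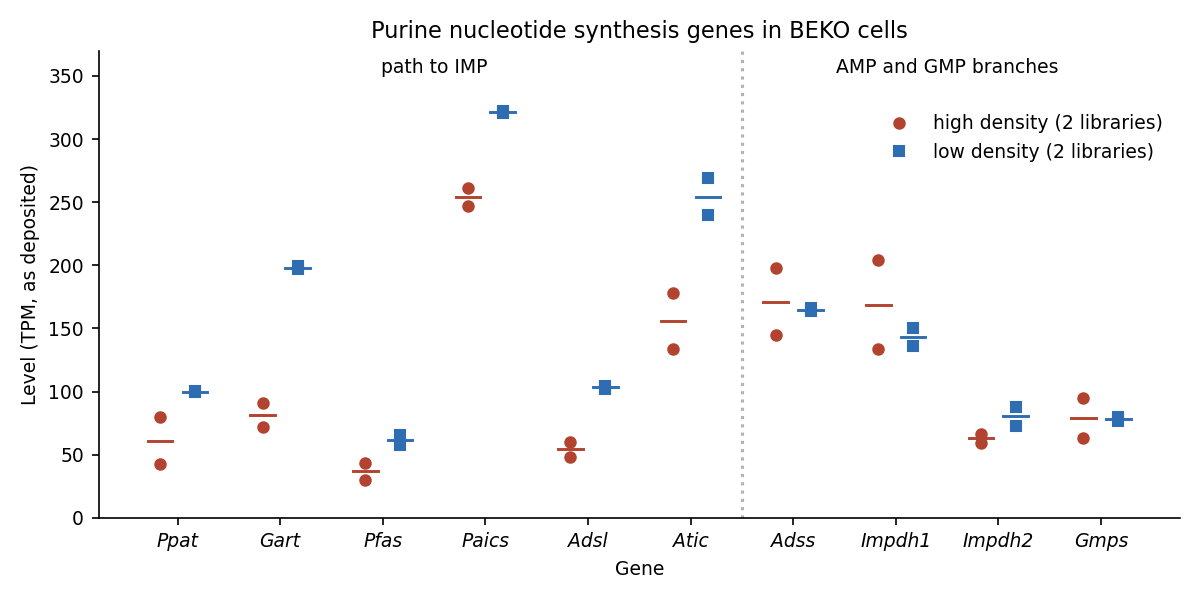
TPM of each of the 10 genes (vertical axis, linear) in pathway order, with circles for the 2 high density libraries left of squares for the 2 low density libraries and a line at each mean. The circles lie below the squares for all 6 genes of the path to IMP and for Impdh2, and overlap them for Adss, Impdh1 and Gmps.

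The sequences around the transcription starts of the 6 genes of the path to IMP are shown for those with an entry. RefSeq windows (build GRCm38.p6, from 250 bases before to 50 after the start, 300 bases long) were matched by symbol for 9 of the 10 genes and not for Pfas. Each is written 5′ to 3′ on the gene's own strand, and position 251 is the annotated start. Capitals mark 3 motifs searched on both strands: CACGTG, the E-box bound by MYC family proteins, GGGCGG, the GC box, and CCAAT. The windows are Ppat at chr5:76951529-76951828 (minus strand), Gart at chr16:91646923-91647222 (minus), Paics at chr5:76951052-76951351 (plus), Adsl at chr15:80948240-80948539 (plus) and Atic at chr1:71556906-71557205 (plus).
Ppat: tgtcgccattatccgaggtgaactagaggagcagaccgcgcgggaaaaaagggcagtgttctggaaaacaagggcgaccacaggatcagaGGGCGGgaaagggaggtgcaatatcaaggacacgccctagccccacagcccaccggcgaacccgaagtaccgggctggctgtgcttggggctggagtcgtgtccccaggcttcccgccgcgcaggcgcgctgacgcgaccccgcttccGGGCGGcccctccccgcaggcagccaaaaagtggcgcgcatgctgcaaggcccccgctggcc
Gart: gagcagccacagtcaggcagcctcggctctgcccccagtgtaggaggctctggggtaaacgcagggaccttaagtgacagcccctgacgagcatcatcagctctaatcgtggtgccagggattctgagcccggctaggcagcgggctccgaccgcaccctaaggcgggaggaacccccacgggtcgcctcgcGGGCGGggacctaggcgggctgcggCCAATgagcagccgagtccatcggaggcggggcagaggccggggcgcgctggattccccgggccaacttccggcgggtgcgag
Paics: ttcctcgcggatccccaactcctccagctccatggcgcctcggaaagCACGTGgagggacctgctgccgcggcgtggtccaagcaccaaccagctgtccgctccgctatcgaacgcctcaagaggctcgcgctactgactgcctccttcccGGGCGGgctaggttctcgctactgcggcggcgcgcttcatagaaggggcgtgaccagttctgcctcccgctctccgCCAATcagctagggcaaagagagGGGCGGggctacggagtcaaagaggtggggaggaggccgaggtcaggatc
Adsl: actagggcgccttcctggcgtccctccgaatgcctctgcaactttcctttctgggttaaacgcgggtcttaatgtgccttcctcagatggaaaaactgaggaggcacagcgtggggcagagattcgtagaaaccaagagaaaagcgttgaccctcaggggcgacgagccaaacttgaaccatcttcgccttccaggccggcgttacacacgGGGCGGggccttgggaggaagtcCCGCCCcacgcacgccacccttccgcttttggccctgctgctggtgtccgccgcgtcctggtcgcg
Atic: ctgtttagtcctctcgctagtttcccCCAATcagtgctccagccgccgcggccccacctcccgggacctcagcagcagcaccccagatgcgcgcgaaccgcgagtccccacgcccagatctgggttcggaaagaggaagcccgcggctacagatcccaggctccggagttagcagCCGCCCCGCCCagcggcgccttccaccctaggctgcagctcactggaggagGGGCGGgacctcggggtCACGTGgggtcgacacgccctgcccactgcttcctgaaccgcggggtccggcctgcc

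A CACGTG lies at positions 48 to 53 in Paics, at 244 to 249 in Atic and at 141 to 146 in the window of Impdh2, and in none of the other windows of these genes. It is present in 3 of the 10 windows of the 9 genes (Impdh1 has 2 windows), and in 7.15% of all 32851 windows of the table. A GC box is in 10 of 10 windows, against 35.7% of all windows, and CCAAT is in 4 of 10, against 37.4%. In Atic, 2 GC boxes overlap by a base. These matches describe letters only.

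Ppat and Paics are neighbours on opposite strands. Their annotated starts lie 276 bases apart in GRCm38.p6, arranged so that the 5′ ends overlap. Per the labels' protocols the libraries were strand-specific, but the sources used here do not say whether reads were counted by strand. If they were not, reads from the shared stretch could be counted to either gene. The ratio of Paics to Ppat was 6.09 and 3.11 at high density and 3.20 and 3.22 at low density. The pair thus kept a nearly fixed ratio in 3 libraries and departed from it in high density library 1, where Ppat was lowest.

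The branch to AMP starts with adenylosuccinate synthase, encoded by Adss, which joins aspartate to IMP. Adss had 145 and 198 TPM at high density and 166 and 164 TPM at low density. The high density values lay on either side of the low density values. Its log2 fold change was 0.04 ± 0.24 (SE), not called (limma adjusted p = 0.946), with a 95% interval from −0.49 to 0.57, and its sign turned with each library centred on its median and without high density library 2.

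The branch to GMP starts with IMP dehydrogenase, which is limiting for guanine nucleotides and has a form encoded by Impdh1 and a form encoded by Impdh2. Impdh1 had 204 and 134 TPM at high density and 150 and 136 TPM at low density. One high density library was the highest of the 4 and the other the lowest. The log2 fold change of Impdh1 was 0.21 ± 0.26 (SE) and was not called (limma adjusted p = 0.679), with a 95% interval from −0.36 to 0.77, and was negative without high density library 1.

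Impdh2, the form known from human lymphocytes to be induced on proliferation, had 66.7 and 59.5 TPM at high density and 88.1 and 72.7 TPM at low density. The groups did not overlap, but limma made no call (adjusted p = 0.439), with a log2 fold change of −0.34 ± 0.25 (SE) and a 95% interval from −0.88 to 0.20. A processed pseudogene of Impdh2 is annotated but has no row in the table, and the sources used here do not say whether its reads were counted to Impdh2.

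Gmps encodes GMP synthetase, which takes its nitrogen from glutamine. It had 63.4 and 95.3 TPM at high density and 79.6 and 76.8 TPM at low density. The high density libraries lay below and above both low density libraries. For Gmps the log2 fold change was −0.0085 ± 0.26 (SE) and was not called (limma adjusted p = 0.991), with a 95% interval from −0.59 to 0.57.

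**Figure D2:**
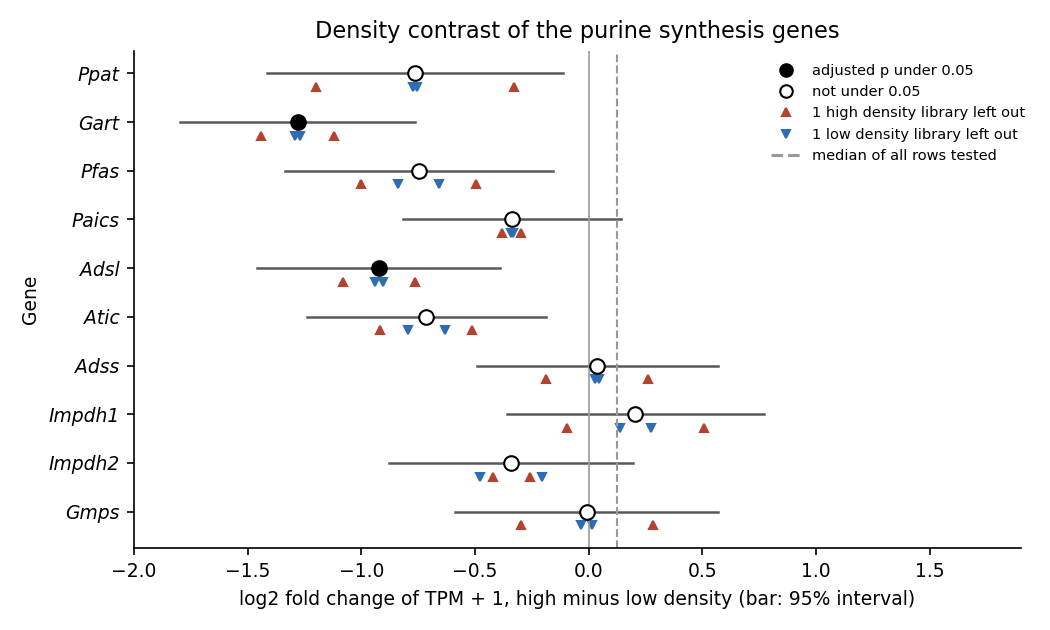
Log2 fold change of TPM + 1, high minus low density, for the 10 genes, with 95% limma intervals (bars), filled circles for an adjusted p under 0.05 and triangles for the value with 1 library left out. Gart (−1.28) and Adsl (−0.92) are filled, the 6 genes of the path to IMP stay negative with any library left out, and the dashed line marks the median of all rows tested (0.12).

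Of the 10 genes, 7 were lower without overlap, 3 overlapped and 0 were higher without overlap. Over all rows tested, 20% were lower and 34.7% higher without overlap. The median log2 fold change was −0.53 over the 10 genes and 0.12 over all 10936 rows tested. With each library centred on its median these values were −0.71 and −0.063. An unadjusted p under 0.05 was found for 5 of the 10, all of them lower and all on the path to IMP, against 23.5% of all rows tested in either direction. Without low density library 1, in which fibroblast markers were found, the log2 fold change of each of the 6 genes was negative. The same held without low density library 2. The median log2 fold change of the 10 genes was −0.48 and −0.62 in these 2 settings, and the calls on Gart and Adsl were lost in both. The part of those markers in the result was not tested. Across all rows 500 were called higher and 231 lower, so that 68.4% of calls were higher, against 51.0% (160 higher and 154 lower) after centring. With no filter on low values limma called 0 rows, with 2565 at an unadjusted p under 0.05, so that the calls on Gart (adjusted p = 0.279) and Adsl (adjusted p = 0.336), and those on the genes named further on, were lost there.

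The division between the path to IMP and its branches was examined as a ratio within each library, which does not depend on the scaling of the library. The 6 genes of the path to IMP summed to 590 and 699 TPM at high density and to 1060 and 1019 TPM at low density. The 4 genes of the branches summed to 479 and 486 TPM at high density and to 484 and 450 TPM at low density. The path to IMP thus differed between the densities by far more than its libraries differed from each other, and the branches did not. The ratio of these sums was 1.23 and 1.44 at high density, against 2.19 and 2.27 at low density, a difference of −0.74 on the log2 scale. With Adsl counted in the branches, where it also acts, the difference was −0.58, and with Adsl left out it was −0.72. An exact two-sided permutation test of the ratio gave p = 0.33, the smallest value that 2 libraries against 2 allow. This division follows the biochemistry but was drawn after the values had been seen.

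Ratios of single genes are given as a description, since the pairs were chosen with the values known. The ratio of Adss to Adsl, consecutive enzymes of the branch to AMP, was 2.99 and 3.27 at high density and 1.62 and 1.56 at low density. The ratio of Paics to Gart was 3.62 and 2.72 at high density and 1.61 and 1.63 at low density. Both ratios set a gene called lower against one that was not, and neither overlapped between the densities. The ratio of Impdh1 to Impdh2 was 3.06 and 2.25 at high density, against 1.71 and 1.88 at low density, a difference of 0.55 on the log2 scale of TPM + 1 (exact two-sided permutation p = 0.33). Leaving out high density library 1 gave 0.33 and leaving out high density library 2 gave 0.77, so that high density library 1 set much of it. The levels of Impdh1 and Impdh2 together were 271 and 193 TPM at high density and 238 and 209 TPM at low density, and overlapped. Their ratio to Gmps was 4.27 and 2.03 at high density and 2.99 and 2.72 at low density, and overlapped as well.

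**Figure D3:**
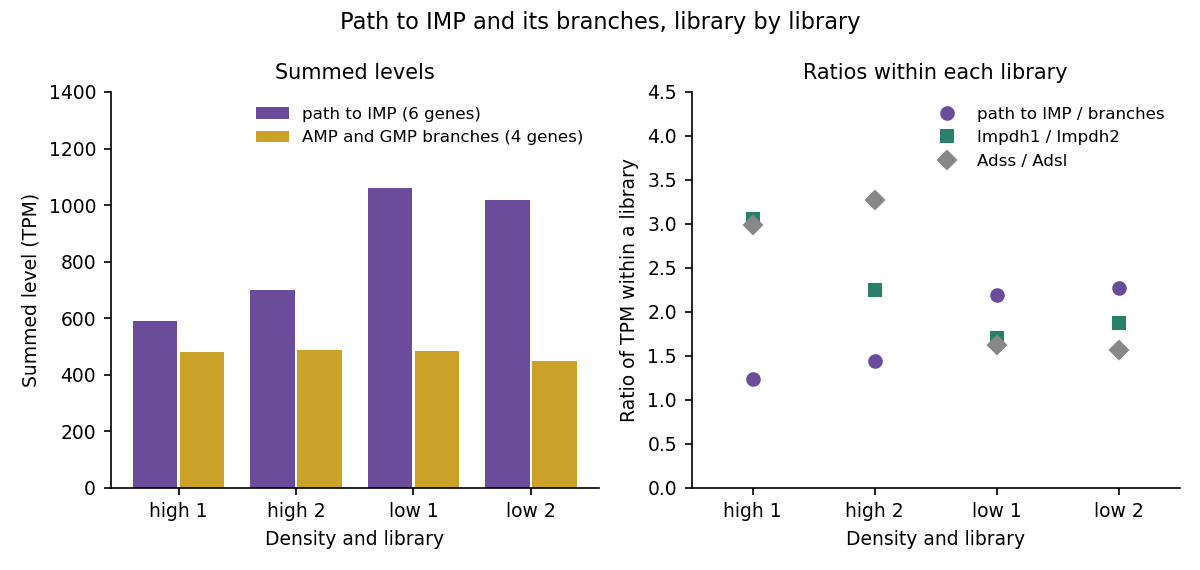
Left, summed TPM of the path to IMP (6 genes) and of the branches (4 genes) in each library. Right, ratios of TPM within each library for the path to IMP over the branches, Impdh1 over Impdh2, and Adss over Adsl. The path to IMP is 590 and 699 TPM at high density and 1060 and 1019 TPM at low density, while the branches stay between 450 and 486 TPM.

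The order of the levels differed between the densities. At high density Paics came first (254 ± 10.3 TPM, SD, n = 2), followed by Adss, Impdh1 and Atic (171 ± 37.5, 169 ± 49.5 and 156 ± 31.0 TPM), of which no neighbours were apart. Gart, Gmps, Impdh2, Ppat and Adsl followed between 81.6 ± 13.0 and 54.4 ± 8.53 TPM with overlapping neighbours, and Pfas was last at 36.9 ± 9.25 TPM. At low density the order was Paics, Atic, Gart, Adss, Impdh1, Adsl, Ppat, Impdh2, Gmps and Pfas, from 322 ± 0.965 to 61.7 ± 5.57 TPM, and only Impdh2 and Gmps overlapped. Gart thus stood above Adss and Impdh1 in both low density libraries and below both in both high density libraries.

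The muscle-type adenylosuccinate synthase gene Adssl1, which encodes a second form of the enzyme made from Adss, had 7.96 and 6.81 TPM at high density, against 0.176 TPM in low density library 1 and a listed value of 0 in low density library 2. It passed the filter of a mean of 1 TPM only through its high density values, so that its test is not used here, and its fitted log2 fold change followed the pseudocount (5.49 with 0.1, 2.95 with 1 and 1.28 with 5). Its level was 0.055 and 0.0344 times that of Adss in the high density libraries.

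PRPP is made by phosphoribosyl pyrophosphate synthetases. Of 5 genes for these enzymes and their associated proteins, 1 fell and 0 rose, and the median log2 fold change was −0.11. Prps2 had 279 and 245 TPM at high density and 508 and 451 TPM at low density (log2 fold change −0.87 ± 0.22 SE, called by limma at an adjusted p of 0.0403). This call was lost without low density library 1 or 2, after centring, after quantile normalisation, after rescaling without ribosomal protein genes and without the trend (adjusted p up to 0.498 over all alternatives). The ratio of Prps2 to Prps1, a partner isoform picked after its values were seen, was 2.91 and 1.99 at high density and 4.72 and 4.27 at low density.

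Folate-borne formyl groups are used by the products of Gart and Atic. Of 10 genes that supply them, 7 were tested, of which 2 fell and 0 rose, with a median log2 fold change of −0.16. Both that fell act in the cytosol. Mthfd1, which makes the formyl donor there, had 57.3 and 71.5 TPM at high density and 163 and 144 TPM at low density (log2 fold change −1.25 ± 0.24 SE, with limma adjusted p = 0.0116). Shmt1, the cytosolic serine hydroxymethyltransferase, had 30.0 and 40.5 TPM at high density and 83.8 and 82.5 TPM at low density (−1.23 ± 0.26 SE, adjusted p = 0.0168). Neither call held without low density library 1 or 2 (adjusted p up to 0.31 for Mthfd1 and 0.367 for Shmt1 over all alternatives).

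Salvage genes mostly did not pass the test. Of 11 genes for salvage and nucleoside transport 10 were tested, 6 with a negative and 4 with a positive log2 fold change (median −0.21). Past the threshold 1 fell and 0 rose. The one that fell was Adk, encoding adenosine kinase, at 61.2 and 50.3 TPM at high density and 121 and 116 TPM at low density (log2 fold change −1.08 ± 0.24 SE, limma adjusted p = 0.0218). It was not called after centring, after quantile normalisation, without the trend, or without low density library 1 or 2 (adjusted p up to 0.396 over all alternatives). Hprt, which salvages hypoxanthine and guanine and was picked after its values were seen, had 256 and 259 TPM at high density and 307 and 330 TPM at low density (−0.30 ± 0.22 SE, adjusted p = 0.442).

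Of 14 purine nucleotide kinase genes 10 were tested, with 1 lower, 0 higher and a median log2 fold change of −0.29. Nme1, a nucleoside diphosphate kinase gene, fell to 191 and 201 TPM at high density, against 469 and 532 TPM at low density (log2 fold change −1.34 ± 0.22 SE, adjusted p = 0.0049 by limma). The call was lost without low density library 2, and with no filter on low values (adjusted p up to 0.192). Nme1 and its close neighbour Nme2 are similar in sequence, and reads could be divided between them in a way that the table does not show. Nme2, picked after its values were seen, had 764 and 678 TPM at high density and 1059 and 1401 TPM at low density. Its log2 fold change was −0.76 ± 0.23 (SE) and was not called (limma adjusted p = 0.0746). Of 18 genes for breakdown and interconversion, 12 were tested and 0 were called (median 0.09). Without high density library 1 limma called some of them higher, Ampd1 among them. Without high density library 2 it called some higher, Ampd1 and Samhd1 among them, and others lower. In the main fit the smallest p were those of Ampd1 and Samhd1. Ampd1, an AMP deaminase gene, had 3.14 and 2.92 TPM at high density and 0.908 and 0.525 TPM at low density (limma adjusted p = 0.0809). Samhd1, encoding a dNTP hydrolase, had 4.92 and 2.10 TPM at high density and 0.530 and 0.847 TPM at low density (adjusted p = 0.0862). Both genes passed the filter only through their high density values, so that no weight is placed on any of their calls. These include Ampd1 without the trend (limma adjusted p = 0.0347) and Samhd1 with the replicate block (adjusted p = 0.0411).

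**Figure D4:**
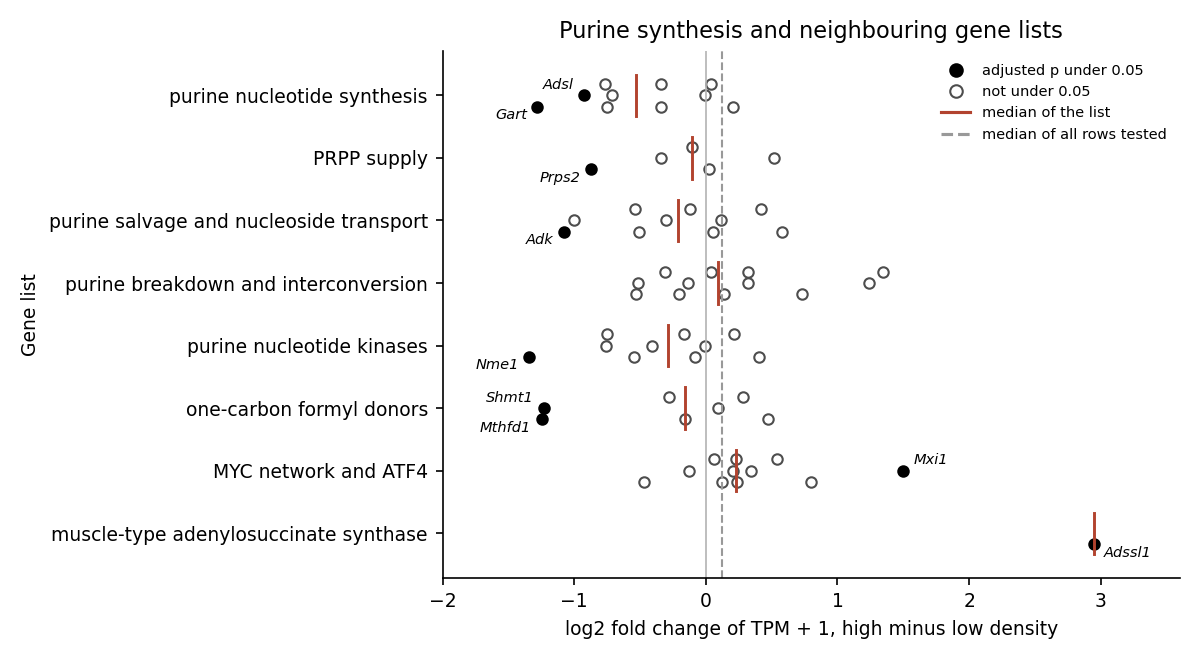
Log2 fold change of TPM + 1, high minus low density, of every tested gene in the purine synthesis group and 7 neighbouring lists. Filled circles mark an adjusted p under 0.05, red lines the list medians and the dashed line the median of all rows tested (0.12). Adssl1 passed the filter only through its high density values. The median of purine nucleotide synthesis (−0.53) is the lowest of those drawn.

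MYC, with its partner MAX, is known to bind and activate many of these genes, and MXI1 and the MXD proteins compete for MAX. Of 13 genes of this network and Atf4, 11 were tested, 1 rose and 0 fell (median 0.23). Mxi1 rose to 99.4 and 57.0 TPM at high density, against 30.3 and 22.4 TPM at low density (log2 fold change 1.50 ± 0.31 SE, limma adjusted p = 0.0158), and was not called after centring, after quantile normalisation or without low density library 2 (adjusted p up to 0.474 over all alternatives). Myc, picked after its values were seen, had 141 and 315 TPM at high density and 251 and 212 TPM at low density (−0.13 ± 0.33 SE, adjusted p = 0.852). The high density libraries lay on either side of both low density libraries.

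By the distance between log2(TPM + 1) values centred over the 4 libraries, the 5 genes of at least 20 TPM whose pattern was most like that of the summed level of the 10 were Immt, Kri1, Agap2, Lrp11 and Ccm2, with distances of 0.0522 to 0.0649 among 6931 candidates. The summed level itself was 1068 and 1185 TPM at high density and 1543 and 1469 TPM at low density. Immt, the nearest, had 144 and 163 TPM at high density and 207 and 192 TPM at low density. None of these 5 was called (limma adjusted p from 0.321 to 0.44).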

How the data were processed

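RNA of the BEKO line was measured in 4 libraries, 2 at high and 2 at low density. Per the labels' protocols, the libraries were strand-specific and made from total RNA. The authors deposited 1 table of TPM values with 25630 rows, each library summing to 1000000 TPM. The submitters' processing notes name the build mm9 and DESeq2 1.2.10 without a role. The aligner, counter, annotation and gene lengths are not stated in the sources used here. TPM keeps no depth, so no counting interval is given.

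Of the rows, 10936 had a mean TPM of 1 or more over the 4 libraries and were tested on log2(TPM + 1) with limma 3.58.1 in R 4.3.3 (group term, mean-variance trend, two-sided), with Benjamini-Hochberg adjustment over all rows tested and calls at an adjusted p under 0.05. All 10 genes passed that filter. The model had 2 residual degrees of freedom, to which moderation added 9.53. The fit was tested on simulated data. The 10 genes and the other lists were chosen with earlier results of these data known. Named from each other list were called members (up to 4) or, where none was called, the 2 of smallest p, and genes outside this rule are marked as picked later. Alternatives are given in the closing section.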

Additional observations from a re-analysis of the deposited data

How the results depend on the processing

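Of the 10 genes, 2 (Gart and Adsl) were called lower, and the same 2 under pseudocounts of 0.1 and 5, a mean of at least 5 TPM, quantile normalisation, rescaling without ribosomal protein genes, robust moderation and the replicate block. Centring each library added Pfas. Without the trend 1 (Gart) was called, with 144 rows lower over the whole table. With no filter on low values limma called 0 of the 10, and 0 rows higher and 0 lower, with 2565 rows and 4 of the 10 genes at an unadjusted p under 0.05. Rows called higher numbered 160 after centring and 216, with 144 called lower, after quantile normalisation. With 1 library left out, a lone library is assumed to vary like the other group. The 10 genes then gave 0 to 5 calls lower (5 without high density library 2, 3 without high density library 1, 0 without either low density library) and 0 higher. Rows called higher ran from 99 to 2873 and rows called lower from 69 to 1271. The median log2 fold change of the 10 genes ran from −0.62 to −0.40, the log2 difference of the ratio of Impdh1 to Impdh2 from 0.33 to 0.77, and that of the path to IMP over its branches from −0.85 to −0.63 (−0.58 with Adsl counted in the branches, a setting chosen after seeing the data).

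Signs turned for genes that were not called in the main fit. Adss was −0.15 after centring. With 1 library left out the log2 fold change ran from −0.19 to 0.26 for Adss, from −0.096 to 0.51 for Impdh1, from −0.30 to 0.28 for Gmps (0.016 without low density library 1) and from −0.70 to 0.45 for Myc, the ends being the 2 high density libraries. The cause was not tested. What libraries of the same replicate number share beyond that number is not stated in the labels. Replicate 1 deviations in the 2 groups correlated at r = 0.042 across the 10936 rows, which cannot show whether such libraries were prepared together. With the replicate block 600 rows were higher and 337 lower, and 2 of the 10 genes were lower. Depth is unknown, and 2 libraries per group limit the precision of each value.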
